A study of Mus musculus with 4 samples.

Results

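The glucose transporter Slc2a1 and the enzymes Hk2, Pfkp, Aldoa, Tpi1, Gapdh, Pgk1, Eno1, Pkm and Ldha, which together carry glucose into the cell and on to lactate, were followed in single cells of a mouse keratinocyte line. These 10 genes were taken by symbol from the 32285 genes counted, and each was found. The cells were of the MK line, keratinocytes being the main cell type of the epidermis, and were kept in E low medium with 15% serum. Dox, the usual short form of doxycycline, stands as the treatment on every sample, and all cells carried a lineage tag and were sorted by GFP. There was 1 RNA library and 1 matching tag library for cells labelled Diff_MK, and the same pair for cells labelled MK. The labels do not spell out Diff, and give no oxygen or glucose level, so the groups are named as labelled.

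Glycolysis splits glucose into pyruvate in the cytosol and yields ATP without oxygen. Slc2a1 (GLUT1) is the main glucose carrier of basal epidermal cells, and hexokinase and phosphofructokinase catalyse the committed early steps. Lactate dehydrogenase turns pyruvate into lactate and restores the NAD+ that the Gapdh step consumes, and most of these genes are textbook targets of the hypoxia-inducible factors.

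Over all cells, Slc2a1, the sugar-cleaving part of the pathway and Pgk1 were higher in Diff_MK, and Hk2 was lower. The last steps before lactate were near equal. Within the clusters that held both libraries, Hk2 was not lower, and the rise of Slc2a1, Tpi1 and Pgk1 was not seen in each. Slc2a1 reached 231 CPM (counts per 1000000 UMIs of the library) in the Diff_MK library and 90.4 CPM in the MK library, a ratio of 2.55 (95% interval 2.5 to 2.61). Of the 10 genes, 9 had a higher level in Diff_MK, where 29.9% of all 7736 genes at 10 CPM or more did. At least 1.5-fold higher were 4 of the 10 (Slc2a1, Pfkp, Aldoa and Tpi1), against 4.51% of all genes, and none was at least 1.5-fold lower, against 7.57%. Intervals here and below cover counting error only. With 1 library per group no test between Diff_MK and MK was possible, and each difference is one between these libraries.

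Both libraries were deep and similar in size. After filtering, 6912 Diff_MK cells with a median of 14223.5 UMIs and 7175 MK cells with a median of 15599.0 UMIs remained, and 9 cell barcodes occurred in both. Basal keratinocyte markers were all measured (8 of 8, summed to 17521 CPM in Diff_MK and 8329 CPM in MK), as were 5 of 8 spinous markers at 5 CPM or more. Krt14 made up most of the basal sum (12789.7 CPM in Diff_MK and 6295 CPM in MK). Krt5, Krt15 and Col17a1 were also higher in Diff_MK, and Itga6, Itgb4, Trp63 and Itga3 were lower. Spinous markers summed to 3372 CPM in Diff_MK and 1348 CPM in MK, and granular markers to 339 CPM in Diff_MK and 171 CPM in MK. Of these, Sbsn, Lor and Tgm3 were lower in Diff_MK. No marker of melanocytes, fibroblasts, endothelial or erythroid cells reached 5 CPM, and of 6 immune markers 1 did. The markers of those other cell types summed to at most 6.42 CPM per list in either library. S phase markers summed to 679 CPM in Diff_MK and 1193 CPM in MK, and G2/M markers to 1424 CPM in Diff_MK and 1894 CPM in MK. Ribosomal protein genes took 25.6% of Diff_MK and 22.6% of MK UMIs, and the median log2 ratio over all genes was -0.16.

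The stretches before the start sites of 4 of these genes are shown because they span the range of responses, from the strongest (Slc2a1) to the only lower gene (Hk2), with Pgk1 and Ldha between. Sequences and strands are those of RefSeq on GRCm38.p6, 5′ to 3′ up to the start, and capitals mark the core letters of the hypoxia response element, ACGTG or GCGTG, on either strand. The Slc2a1 stretch (chr4:119108495-119108710, plus strand) ends where GENCODE's first exon begins, and a second match reaching into that exon is not printed. The Hk2 stretch (chr6:82774455-82774704, minus strand) and the Pgk1 stretch (chrX:106186850-106187099, plus strand) overlap no annotated gene. The Ldha stretch (chr7:46845554-46845803, plus strand) lies within Ldha as GENCODE draws it, outside its exons.
Slc2a1: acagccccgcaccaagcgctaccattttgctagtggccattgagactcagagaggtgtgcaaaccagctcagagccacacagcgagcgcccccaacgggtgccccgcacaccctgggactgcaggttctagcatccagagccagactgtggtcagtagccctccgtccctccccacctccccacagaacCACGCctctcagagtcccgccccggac
Hk2: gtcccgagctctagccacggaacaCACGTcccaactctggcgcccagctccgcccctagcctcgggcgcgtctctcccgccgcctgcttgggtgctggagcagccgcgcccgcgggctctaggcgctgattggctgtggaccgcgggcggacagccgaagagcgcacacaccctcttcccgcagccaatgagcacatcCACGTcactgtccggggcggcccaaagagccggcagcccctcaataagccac
Pgk1: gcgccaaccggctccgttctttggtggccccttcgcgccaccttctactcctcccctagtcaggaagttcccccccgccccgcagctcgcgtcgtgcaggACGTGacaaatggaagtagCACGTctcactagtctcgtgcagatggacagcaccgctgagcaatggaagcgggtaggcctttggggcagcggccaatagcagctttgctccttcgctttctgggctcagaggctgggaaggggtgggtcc
Ldha: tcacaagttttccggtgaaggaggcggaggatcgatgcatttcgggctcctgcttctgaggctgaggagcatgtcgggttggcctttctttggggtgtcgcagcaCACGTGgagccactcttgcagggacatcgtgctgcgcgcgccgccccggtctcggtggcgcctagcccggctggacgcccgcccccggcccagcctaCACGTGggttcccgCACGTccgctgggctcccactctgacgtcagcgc

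A core match stood in 13 of the 16 RefSeq windows of these genes, where 38.6% of all 32851 windows of 250 bases hold one. A pair of Aldoa windows and a pair of Eno1 windows overlap and hold the same matches. With 1 to 3 windows a gene, 9 of the 10 genes had a match in at least 1 window, a count with no share over all genes beside it. ACGTG alone stood in 16.6% of all windows, GCGTG in 28.2%. Tpi1 had none in its window, although it was higher in Diff_MK, and Hk2 had 2 ACGTG matches, although it was lower. In the Ldha stretch shown, 4 of the 5 matches lie within 2 copies of the E-box CACGTG, the letters bound by Myc and its partners, which 6.02% of all windows hold, and each copy holds ACGTG on both strands. The second Ldha window had 1 GCGTG match and no E-box. A match describes letters only.

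Slc2a1 (chromosome 4), the entry point of glucose, ranked 79 of 7736 genes by its ratio. It was the only one of the 10 to pass 2-fold, which 1.82% of all genes did. Over all cells, Hk2 and Pfkp, the genes among the 10 for the phosphorylating steps that follow, went opposite ways. Hk2, the inducible hexokinase that traps glucose in the cell, was at 36.9 CPM in Diff_MK and 44.7 CPM in MK (ratio 0.826, 0.791 to 0.861). Its isoenzyme Hk1, not among the 10, was at 61.5 CPM in Diff_MK and 47.9 CPM in MK. Pfkp, the platelet-type phosphofructokinase, was at 75 CPM in Diff_MK and 40.8 CPM in MK (1.84, 1.77 to 1.91). So over all cells transport and the committed step had more transcript in Diff_MK, while of these hexokinase genes Hk2 had less and Hk1 more.

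Over all cells, both genes of sugar cleavage were higher by a similar factor. Aldoa, the aldolase that splits fructose bisphosphate, was at 859 CPM in Diff_MK and 551 CPM in MK (1.56, 1.54 to 1.57). Tpi1, which interconverts the resulting trioses, was at 631 CPM in Diff_MK and 385 CPM in MK (1.64, 1.62 to 1.66). A second gene entry under the symbol Aldoa held 0 UMIs in Diff_MK and 2 in MK and was kept apart.

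The oxidation and payoff steps were uneven. Gapdh, the most abundant transcript of the set and the enzyme that oxidizes the triose, was at 5839.9 CPM in Diff_MK and 5706 CPM in MK (1.02, 1.02 to 1.03). Pgk1, the X-linked gene of the first ATP-forming kinase, was at 1077 CPM in Diff_MK and 754 CPM in MK (1.43, 1.42 to 1.44). Eno1, the enolase, was at 399 CPM in Diff_MK and 395 CPM in MK (1.01, 0.998 to 1.02), its interval including equality. Pkm, the muscle-type pyruvate kinase, was at 1311 CPM in Diff_MK and 1293 CPM in MK (1.01, 1.01 to 1.02). The direction for Gapdh and Pkm depended on which cells were counted, since leaving out 1 or 2 clusters put their ratios at 0.930 to 1.0. Ldha, which makes lactate, was at 1025 CPM in Diff_MK and 828 CPM in MK (1.24, 1.23 to 1.25).

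Because Gapdh made up 50.8% of the UMIs of the set in Diff_MK and 56.6% in MK, the summed level moved little. The sum was 11486 CPM in Diff_MK and 10089 CPM in MK, a ratio of 1.14. Without Gapdh it was 5646 CPM in Diff_MK and 4382 CPM in MK, a ratio of 1.29 (1.28 to 1.29). Scaling by the median gene ratio, so that the typical gene is equal in both libraries, put Gapdh at 1.14, Pkm at 1.13, Eno1 at 1.12 and Hk2 at 0.918. The order of levels from Gapdh and Pkm at the top was alike in both libraries, but Pgk1 passed Ldha, Tpi1 passed Eno1 and Pfkp passed Hk2 in Diff_MK. These are 3′ end counts, so length does not enter the order. How the upstream counting divided reads among near-identical copies of Gapdh, Eno1 and the other genes was not tested.

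**Figure D1:**
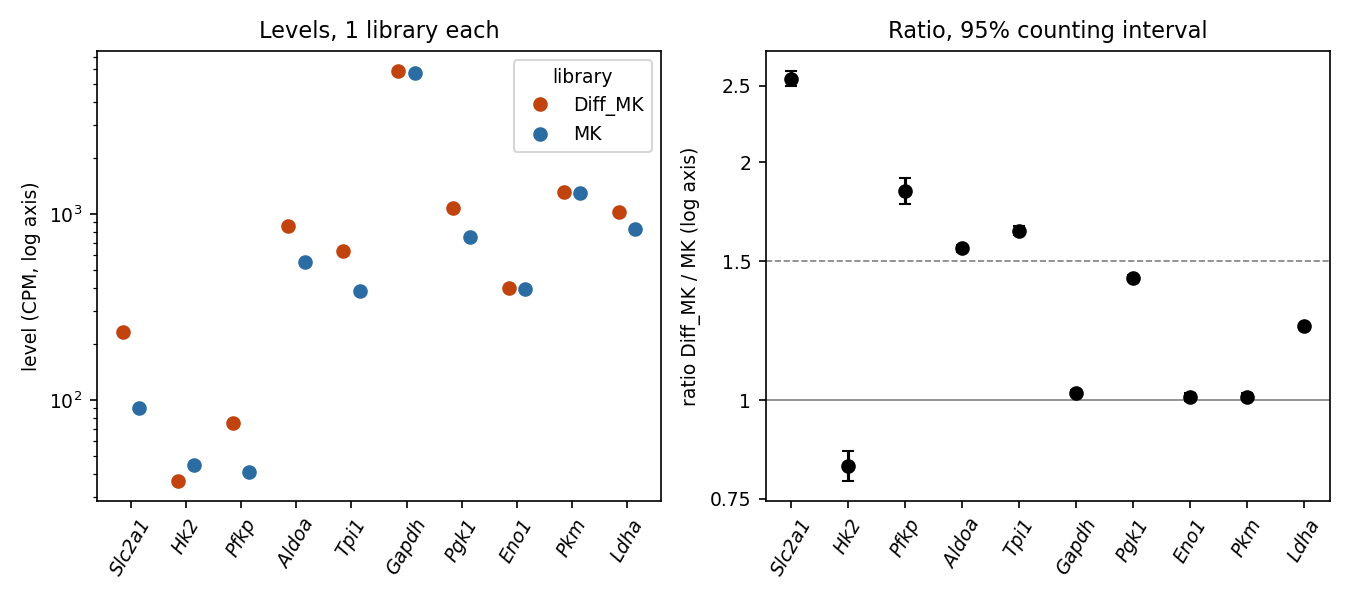
Levels of the 10 genes in CPM on a log axis (left; 1 library per point, Diff_MK left of MK) and ratio Diff_MK over MK on a log axis with 95% counting intervals (right; solid line at equality, dashed line at 1.5-fold). Slc2a1 stands highest at 2.55, 4 genes lie above the dashed line, Gapdh, Eno1 and Pkm sit at 1.01 to 1.02 and Hk2 lies below equality at 0.826. Scaled by the median gene ratio, Gapdh, Eno1 and Pkm sit at 1.12 to 1.14, and leaving out 1 or 2 clusters puts Gapdh and Pkm at 0.930 to 1.0.

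Among single cells the whole distribution of Slc2a1 differed, and in Diff_MK it had a tail of high cells. Cells were thinned to 7500 UMIs each, which left 6277 Diff_MK cells (635 left out) and 6838 MK cells (337 left out). At least 1 Slc2a1 UMI was then found in 70.9% of Diff_MK cells (69.7 to 72.0) and 48.0% of MK cells (46.8 to 49.2), and unthinned in 86.7% of Diff_MK and 71.6% of MK cells. Cells with no Slc2a1 UMI were 29.1% of thinned Diff_MK and 52.0% of thinned MK cells. Cells with 5 or more Slc2a1 UMIs made up 12.2% of Diff_MK cells and 0.263% of MK cells. The ratio of variance to mean was 2.61 in Diff_MK and 1.12 in MK, so MK cells were close to counting noise (a ratio of 1) and Diff_MK cells were not. No cell type that should lack these genes was present, so the share set by free RNA could not be measured.

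The other low genes had no such tail. Hk2 was detected in 21.9% of thinned Diff_MK and 26.3% of thinned MK cells (unthinned 37.0% in Diff_MK and 45% in MK), and Pfkp in 42.7% of Diff_MK and 25.1% of MK cells (unthinned 62.7% in Diff_MK and 44.1% in MK). Their variance-to-mean ratios lay between 1.11 and 1.15 in both libraries. The remaining 7 genes were found in at least 90.5% of thinned cells of each library. The variance-to-mean ratio of all 7 was larger in Diff_MK, being for Gapdh of 9.85 in Diff_MK and 5.07 in MK, for Ldha of 3.33 in Diff_MK and 1.71 in MK, and for Aldoa of 2.79 in Diff_MK and 1.67 in MK. For Eno1 it was 1.28 in Diff_MK and 1.20 in MK. This ratio grows with the mean where cells differ. The SD divided by the mean was 0.634 in Diff_MK and 0.633 in MK for Aldoa, 0.732 in Diff_MK and 0.745 in MK for Tpi1 and 0.866 in Diff_MK and 0.889 in MK for Pgk1. It was larger in Diff_MK for Gapdh (0.468 in Diff_MK and 0.344 in MK) and Ldha (0.647 in Diff_MK and 0.525 in MK). The same held for Pkm (0.422 in Diff_MK and 0.383 in MK) and Eno1 (0.651 in Diff_MK and 0.631 in MK).

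**Figure D2:**
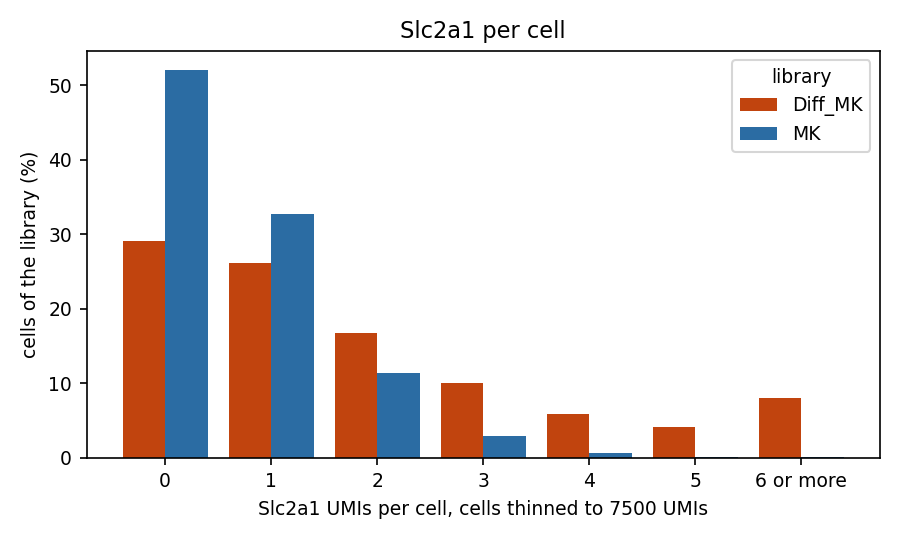
Share of cells (percent of the library) by Slc2a1 UMIs per cell after thinning each cell to 7500 UMIs, for 6277 Diff_MK cells (left bar of each pair) and 6838 MK cells (right bar). Cells with 6 or more UMIs were 8.08% of Diff_MK and 0.0877% of MK cells, and cells with 0 were 29.1% of Diff_MK and 52.0% of MK cells.

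By the median pair, the 10 genes also went together from cell to cell more in Diff_MK than in MK, though Hk2 hardly went with any. Over the 45 gene pairs the median Pearson correlation of thinned counts was 0.16 in Diff_MK (range -0.04 to 0.49) and 0.05 in MK (-0.11 to 0.34). The closest pair was Tpi1 with Gapdh, at 0.49 in Diff_MK and 0.34 in MK. The closest partner of Hk2 was Ldha, at 0.07 in Diff_MK and 0.04 in MK. Counting noise lowers correlations of low counts, and the part of the higher Diff_MK counts was not tested. These cells share 1 library and 1 depth, and the values are descriptions.

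Cells with few cell cycle transcripts carried the most Slc2a1, and they were more frequent in Diff_MK. Cells with at most 2 UMIs of 20 S and G2/M markers made up 34.2% of thinned Diff_MK and 6.70% of thinned MK cells. In those cells Slc2a1 was at 419.9 CPM in Diff_MK and 108 CPM in MK. In cells with 10 or more such UMIs it was at 152 CPM in Diff_MK and 89.1 CPM in MK. Hk2 ran the other way in both libraries. In cells with at most 2 marker UMIs it was at 27.4 CPM in Diff_MK and 31.7 CPM in MK. In cells with 10 or more it was at 40.6 CPM in Diff_MK and 44.8 CPM in MK. Aldoa was at 1309.8 CPM and 648 CPM in the same 2 classes of Diff_MK cells, and at 823 CPM and 518 CPM in those of MK cells.

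Depth moved with these levels as well. In 5 equal classes of Diff_MK cells from the shallowest to the deepest (median 7718.0 to 23712 UMIs), Slc2a1 was at 423, 388, 239, 177 and 138 CPM. In the same classes of MK cells (median 9860.0 to 22968 UMIs) it was at 94.4, 98.2, 95.1, 87.4 and 83.8 CPM. The Diff_MK level stood above the MK level in every class. The part of depth and of the cell cycle in the difference was not tested.

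Clustering the cells with the 10 genes left out gave 14 clusters, and 9 of them held at least 50 Diff_MK cells and 6 at least 50 MK cells. Clusters 0 (2139 MK cells, S phase-like) and 2 (1767 MK cells, G2/M phase-like) were made almost wholly of MK cells, each with 10 of 10 markers of its phase. Cluster 1, led by Krt15, Clu and Lgals7, held 1842 Diff_MK cells and 1 MK cell. Cluster 9, led by Serpinb11 and Krt78, and cluster 6, led by Elovl6, Ddit4 and Idi1, held 489 and 1102 Diff_MK cells and no MK cell. With 1 library per group, a cluster made of 1 library may be that library rather than a kind of cell. Clusters come from the same cells as the levels, so the values below are descriptions without a test.

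The 10 genes did not peak together. Slc2a1 was highest in Diff_MK cells of cluster 1, at 549 CPM, and lowest in those of cluster 4 (led by Ada and Cdh2), at 97.4 CPM, a 5.64-fold span. In MK cells it ran only between 77.0 and 109 CPM, so the Diff_MK low lay within the MK range. Pfkp (111 CPM) and Aldoa (1410.1 CPM) also peaked in cluster 1. Hk2 had its Diff_MK minimum there, at 25.3 CPM, and its maximum, 79.2 CPM, in cluster 7, which Lor, Pth1r and Lcn2 led. Ldha peaked in cluster 7 too, at 1869 CPM. Pgk1 peaked in cluster 9, at 2009 CPM, 4.0-fold above its low of 502 CPM in cluster 4. Eno1 stayed between 343 and 462 CPM over the Diff_MK clusters and between 322 and 417 CPM over the MK clusters, which made it the flattest gene of the set in Diff_MK.

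Against the other Diff_MK cells, cluster 1 had 4 of the 10 genes at least 1.5-fold higher (Slc2a1, Pfkp, Aldoa and Tpi1), where 4.21% of all genes were. The ratios were 3.43 for Slc2a1, 1.92 for Aldoa, 1.84 for Tpi1 and 1.65 for Pfkp. Hk2 was at least 1.5-fold lower in cluster 1, which 36.5% of all genes were. The median depth of cluster 1 was 10131 UMIs, the lowest among these Diff_MK groups. In cluster 9, Aldoa, Tpi1 and Pgk1 were at least 1.5-fold higher, where 10.2% of all genes were, and none was as much lower (43.2%). In cluster 7, Hk2 and Ldha were higher by that factor (24.1%) and none lower (9.67%). In cluster 10, led by Krt7 and Edn2, Tpi1 was higher (8.32%) and none lower (19.4%). This group of 77 cells had the highest summed level of the 10, at 14731 CPM, and also 10 of 10 G2/M markers at least 1.5-fold up. No gene of the 10 passed the factor in either direction in cluster 3 (2.10% of all genes above and 6.18% below) or cluster 6 (2.88% above and 2.35% below).

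The low side was as uneven. In cluster 5, led by Pclaf and Akap12, Slc2a1, Aldoa and Tpi1 were at least 1.5-fold below the other Diff_MK cells, where 5.64% of all genes were, and none was as much above (10.9%). In cluster 8, led by Tmem176b, these 3 and Pgk1 were below, where 5.19% of all genes were, and none was above (8.17%). In cluster 4, Slc2a1 and Pgk1 were below (4.40%) and none above (14.3%). Among MK groups, Pgk1 in cluster 4 (1.94% of all genes), Pgk1 in cluster 7 (16.6%) and Hk2 in cluster 8 (10.8%) lay 1.5-fold or more below the other MK cells. Aldoa in cluster 7 (22.5%) was the only one that far above. Of the 10, none was that far above in MK clusters 4 (1.39%) and 8 (5.01%). None passed the factor in either direction in MK cluster 0 (1.02% of all genes above and 5.30% below), cluster 2 (2.84% and 3.92%) or cluster 3 (5.0% and 10.5%).

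**Figure D3:**
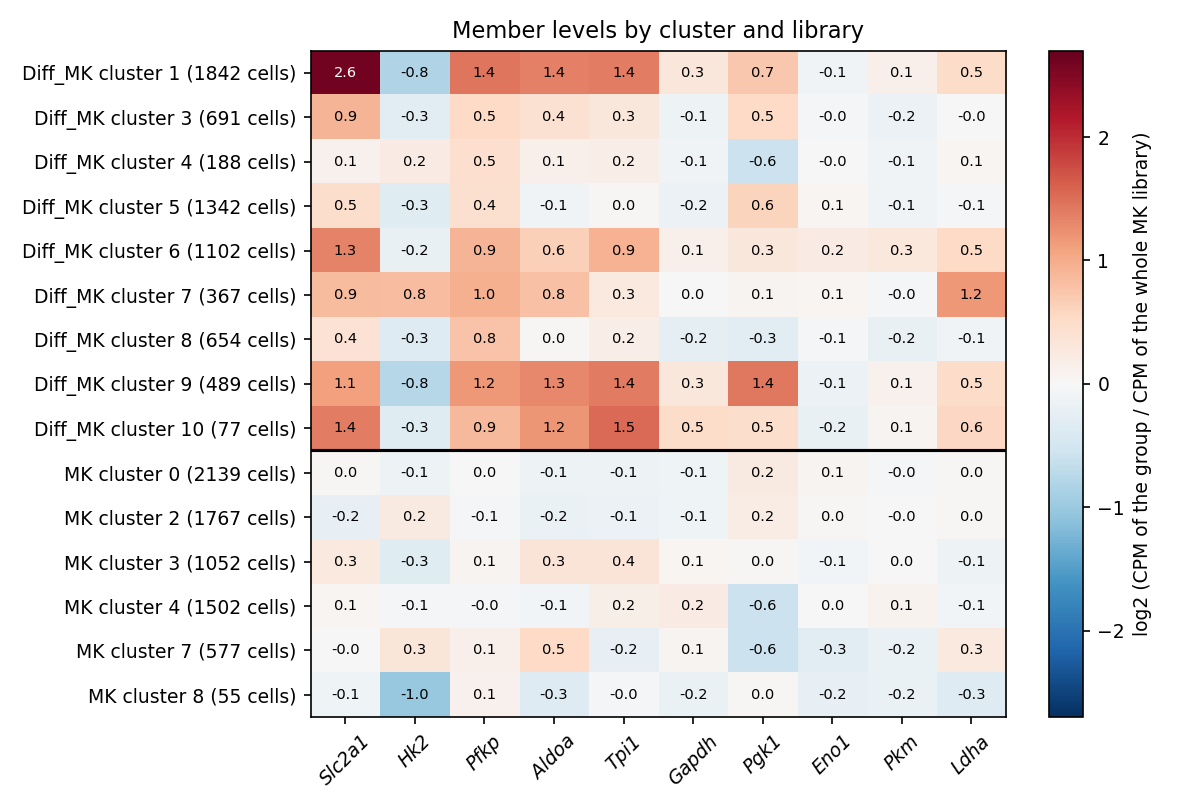
Log2 ratio of each gene's CPM in a cluster to its CPM in the whole MK library (columns are genes, rows are clusters with 50 or more cells of the library, Diff_MK rows above the line and MK rows below it; red is higher, blue lower). The darkest cell is Slc2a1 in Diff_MK cluster 1 (549 CPM), Pgk1 is reddest in cluster 9 (2009 CPM), Ldha and Hk2 are reddest in Diff_MK cluster 7 (1869 and 79.2 CPM), and Eno1 is pale throughout.

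Where a cluster held cells of both libraries, the library difference depended on the gene and the cluster, and for Slc2a1 it was smaller than over all cells. Slc2a1 was at 172 CPM in Diff_MK and 109 CPM in MK cells of cluster 3, led by Krt16 (1.58, 1.48 to 1.68). It was at 164 CPM in Diff_MK and 90.2 CPM in MK cells of cluster 7 (1.82, 1.66 to 2.0), and at 119 CPM in Diff_MK and 83.7 CPM in MK cells of cluster 8 (1.42, 1.13 to 1.82). In cluster 4 it was at 97.4 CPM in Diff_MK and 94.4 CPM in MK (1.03), and the interval, 0.914 to 1.16, included equality.

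Scaled by the UMI total of each library's cells in the cluster, Gapdh was lower in Diff_MK in all 4 of these clusters. Its ratios were 0.871, 0.801, 0.960 and 0.961 in clusters 3, 4, 7 and 8. This contrasts with its ratio of 1.02 over all cells. Hk2 turned the other way, with ratios of 1.03 (0.905 to 1.16), 1.21 (1.02 to 1.42), 1.41 (1.24 to 1.60) and 1.60 (1.02 to 2.65) in clusters 3, 4, 7 and 8, against 0.826 over all cells. Pfkp was higher in all 4, with ratios between 1.39 and 1.77. The largest ratio of the 10 within these clusters was that of Ldha in cluster 7, at 1869 CPM in Diff_MK and 988 CPM in MK (1.89, 1.84 to 1.95). The summed level of the 10 was lower in Diff_MK in cluster 3 (0.961, 0.954 to 0.969) and cluster 4 (0.879, 0.869 to 0.889), higher in cluster 7 (1.15, 1.14 to 1.16), and at 1.01 in cluster 8 (0.983 to 1.03). A ratio over 1 was found for 7 of the 10 genes in cluster 3 (32.7% of all genes), 6 in cluster 4 (53.2%), 9 in cluster 7 (46.1%) and 7 in cluster 8 (55.5%). Ratios of at least 1.5 were reached by 1 gene of the 10 in cluster 3 (2.63% of all genes), 0 in cluster 4 (2.72%), 4 in cluster 7 (Slc2a1, Pfkp, Pgk1 and Ldha; 6.26%) and 2 in cluster 8 (Hk2 and Pfkp; 8.20%).

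Over the 15 cluster groups of both libraries, Slc2a1 ran closest to Pfkp among the 10 (r = 0.89), and Aldoa to Tpi1 (0.87), while Hk2 and Pgk1 ran apart (-0.51). Of 2866 genes outside the set, the summed level of the 10 was most like Fdps (r = 0.96), Fdft1, Msmo1, Gpi1, Cyp51 and Hmgcs1 (each 0.95), Acat2 (0.93) and Nsdhl (0.92). All of these but Gpi1, the glucose phosphate isomerase, code for enzymes of the mevalonate and sterol pathway. Slc2a1 was most like Eif3e, Fam162a and Ndrg1 (each 0.91), Bnip3 and Ech1 (each 0.90). The 15 groups come from 2 libraries and share their depth and composition, so these are descriptions.

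Heritable tags allowed cells of common descent to be compared between the libraries. A clone here is the set of cells with the same leading tag, and 21 clones had at least 20 cells in each library, 2821 Diff_MK and 1516 MK cells in all. Slc2a1, Pfkp, Aldoa and Tpi1 were higher in the Diff_MK cells of 21 of 21 clones, and being higher in at least 19 of them was met by 6.62% of all genes. In the largest clone (539 Diff_MK and 280 MK cells) Slc2a1 was at 244 CPM in Diff_MK and 84.1 CPM in MK. The median log2 ratio of Slc2a1 over clones was 1.37, with a range of 0.41 to 2.13. Clones of 1 library are not replicates of a condition, and no test was made over them.

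The other genes varied more in direction. Pkm and Ldha were higher in the Diff_MK cells of 18 clones, Pgk1 of 15, Gapdh of 12 and Eno1 of 9. Hk2 was higher in 4 clones and lower in 17, with a median log2 ratio of -0.45. Pgk1 had the widest range after Hk2 and Slc2a1, from -0.32 to 1.28. The summed level was higher in 19 of 21 clones, with a median log2 ratio of 0.20. Gapdh, Eno1 and Pkm, near equal between whole libraries, thus lay on both sides of equality over clones. Counting error alone can place such genes on both sides, and its part was not tested.

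**Figure D4:**
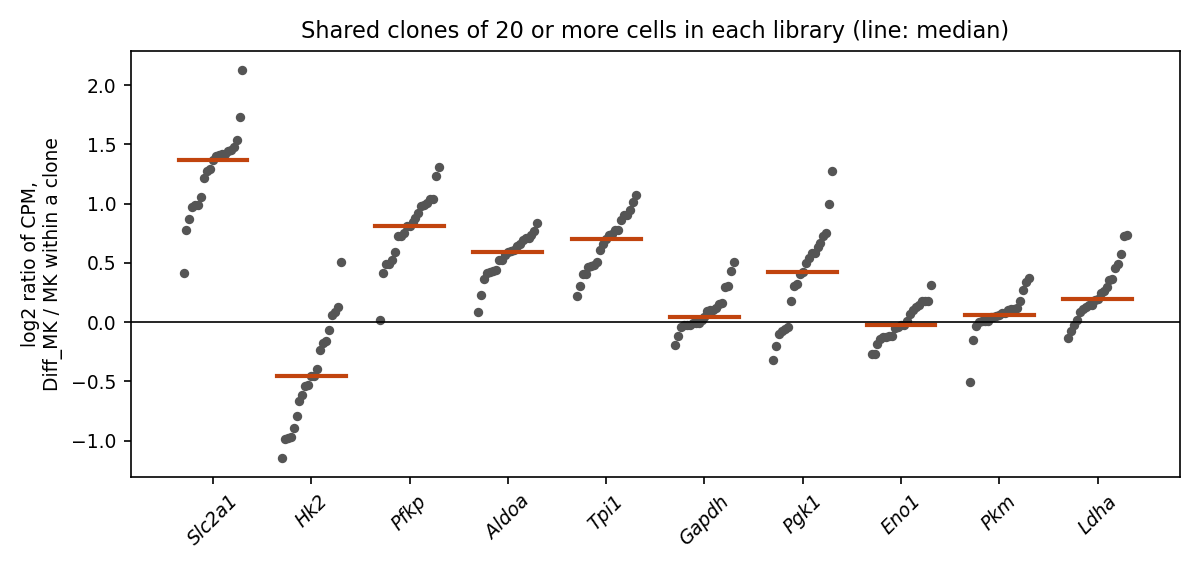
Log2 ratio of CPM, Diff_MK over MK, within each of 21 shared clones (points, sorted within a gene; orange line, median; black line, equality). All points of Slc2a1, Pfkp, Aldoa and Tpi1 lie above equality, 17 of the 21 Hk2 points lie below it, and the Gapdh, Eno1 and Pkm points straddle it.

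Within a library, clones spread further in Diff_MK. Over 50 Diff_MK clones and 46 MK clones of at least 20 cells, Slc2a1 ranged from 118 to 337 CPM in Diff_MK (median 210.5) and from 58.8 to 123 CPM in MK (median 92.9), so the ranges just met. The coefficient of variation was 45.5% in Diff_MK and 17.0% in MK for Pgk1, and 20.1% in Diff_MK and 6.41% in MK for Gapdh. For Eno1 it was 9.76% in Diff_MK and 9.97% in MK, and for Pfkp 18.7% in Diff_MK and 25.7% in MK. Over the Diff_MK clones, the Slc2a1 level went with the share of a clone's cells in cluster 1 (r = 0.61) and the Hk2 level went against it (-0.49).

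Some clones with extreme levels sat mostly in 1 cluster. The clone with the highest Ldha (2129 CPM, 31 cells) had 87.1% of its cells in cluster 7, and the clone with the highest Hk2 (114 CPM, 26 cells) had 84.6% there. The clone with the highest Pgk1 (2795 CPM, 28 cells) was not so placed, with 46.4% of its cells in cluster 5. Its X-linked genes within 5 Mb of Pgk1 had a median log2 ratio of 0.04 to the other Diff_MK cells, so they did not share the high level. The choice of these clones, and of those named next, was made with their values known.

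For Gapdh, neighbouring genes moved with the clone. Gapdh (chr6:125161715-125166467 on GRCm38, minus strand) lies 0.352 Mb from Tpi1 (chr6:124810586-124814296, minus strand), and Hk2 lies 42.4 Mb away on the same chromosome. In the Diff_MK clone with the lowest Gapdh (3147 CPM, 58 cells), 36 of 41 genes within 5 Mb were below the other Diff_MK cells, with a median log2 ratio of -0.44. The other genes of chromosome 6 had a median of -0.00 and the other chromosomes one of 0.00. The next lowest clones, at 3331 and 3402 CPM, had neighbour medians of -0.45 and -0.35. The rest of chromosome 6 had 0.02 and 0.42 there, and the other chromosomes 0.04 and 0.16.

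High Gapdh clones showed the mirror image. In the clone at 8065 CPM (157 cells), 39 of 41 neighbours were higher, with a median log2 ratio of 0.32, where the rest of chromosome 6 had -0.11. The clones at 7895 and 7876 CPM had neighbour medians of 0.48 and 0.50. The rest of chromosome 6 had 0.12 and 0.18 in them, and the other chromosomes 0.13 and 0.15. Over all clones, the Gapdh log2 ratio and the neighbour median had r = 0.81 in Diff_MK (50 clones) and 0.67 in MK (46 clones). Within cluster 5, the clone with the lowest Gapdh had 2633 CPM and the other Diff_MK cells of the cluster 5198 CPM.

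Tpi1, one of these neighbours, followed Gapdh over the Diff_MK clones (r = 0.61). Pkm (chromosome 9) correlated less with its neighbour median, with r = 0.37 in Diff_MK and 0.44 in MK. In the 3 clones with the highest Pkm, at 1726, 1665 and 1626 CPM, the neighbour medians were 0.52, 0.42 and 0.43. The rest of chromosome 9 had 0.39, 0.38 and 0.39 there, and the other chromosomes 0.07, 0.18 and 0.14. The 3 clones with the lowest Pkm, at 985, 1009 and 1088 CPM, had neighbour medians of 0.14, 0.24 and -0.05. Their medians were 0.17, 0.24 and -0.09 over the rest of chromosome 9 and 0.15, 0.17 and 0.04 over the other chromosomes. What lies behind either pattern was not tested.

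**Figure D5:**
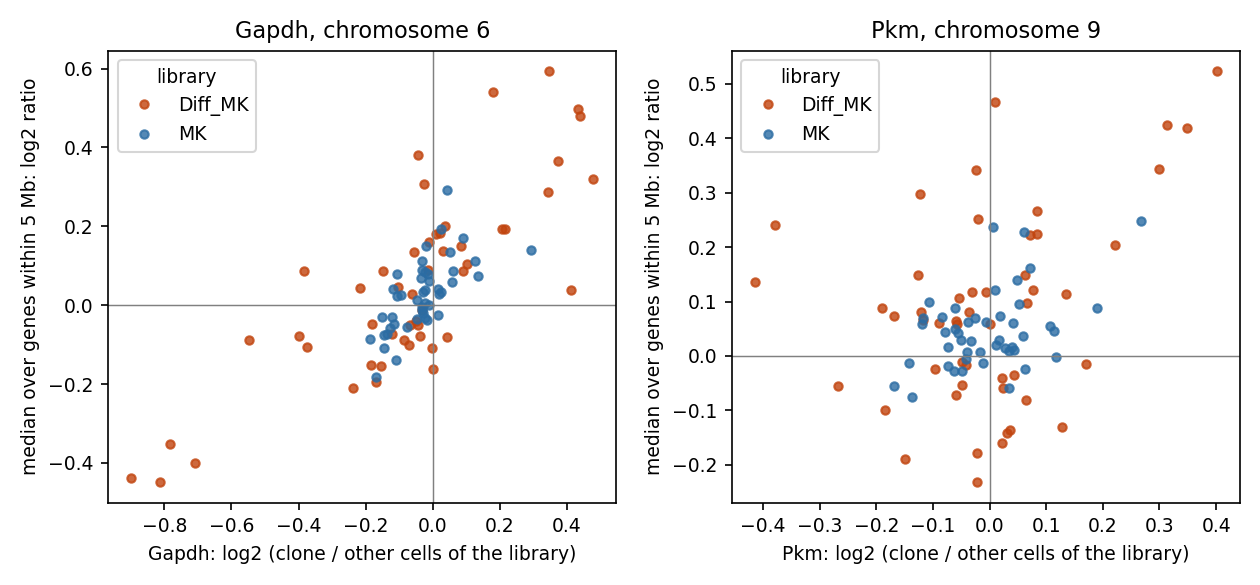
Each clone's log2 ratio of Gapdh (left) or Pkm (right) to the other cells of its library, against the median log2 ratio of the genes within 5 Mb, for 50 Diff_MK and 46 MK clones (orange and blue points). The Gapdh points rise along a diagonal (r = 0.81 in Diff_MK and 0.67 in MK), with the lowest Diff_MK clones at -0.90 on the horizontal axis, and the Pkm points scatter more (r = 0.37 in Diff_MK and 0.44 in MK).

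The remaining genes of glycolysis, glucose and lactate transport were mixed. Of 38 listed genes, 17 reached 5 CPM in at least 1 library, and 8 of them were higher and 9 lower in Diff_MK, where 30.8% of all 9282 genes at that level were higher. Their median log2 ratio was -0.09, beside 0.41 for the 10 genes and -0.16 for all genes. At least 1.5-fold higher were 3 (4.91% of all genes) and 2 were as much lower (8.20%). The difference of this list from the 10 was not tested.

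The 8 higher ones were Slc2a8, Hk1, Gpi1, Pfkl, Pfkm, Pfkfb3, Pgam1 and Bsg. Pfkl, the liver-type phosphofructokinase, was at 57.1 CPM in Diff_MK and 26.8 CPM in MK (2.13, 2.04 to 2.23). Pfkfb3, which makes the activator of phosphofructokinase, was at 9.32 CPM in Diff_MK and 4.89 CPM in MK. Slc2a8, an intracellular glucose carrier, was at 7.78 CPM in Diff_MK and 4.60 CPM in MK. Pfkm, the muscle-type phosphofructokinase, was at 8.07 CPM in Diff_MK and 5.55 CPM in MK. All 3 phosphofructokinase subunits were therefore higher in Diff_MK. Gpi1 was at 231 CPM in Diff_MK and 175 CPM in MK, and Pgam1, the mutase between Pgk1 and Eno1, at 1092 CPM in Diff_MK and 973 CPM in MK. Bsg, a chaperone of lactate transporters, was at 658 CPM in Diff_MK and 476 CPM in MK (1.38, 1.37 to 1.40).

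Other isoenzymes were low or lower. Eno3, the muscle enolase, was at 5.21 CPM in Diff_MK and 13.4 CPM in MK (0.388, 0.352 to 0.429), and Eno1b at 14.3 CPM in Diff_MK and 16.7 CPM in MK. Pfkfb1 was at 3.05 CPM in Diff_MK and 5.30 CPM in MK. The transporter Slc2a3 stood at 0.202 CPM in Diff_MK and 0.217 CPM in MK, so Slc2a1 was by far the more abundant of these carriers. Ldhb was at 0.279 CPM in Diff_MK and 0.495 CPM in MK, which left Ldha as nearly the only lactate dehydrogenase transcript. Aldoc was at 3.0 CPM in Diff_MK and 0.764 CPM in MK, and Eno2 at 0.424 CPM in Diff_MK and 0.0608 CPM in MK.

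Most listed genes that answer to low oxygen outside glycolysis were higher in Diff_MK. Of 18 at 5 CPM or more, 17 were higher in Diff_MK (30.8% of all genes at that level) and 12 at least 1.5-fold higher (4.91%), with a median log2 ratio of 0.73. Bnip3, a mitophagy receptor, was at 59.2 CPM in Diff_MK and 5.74 CPM in MK (10.3, 9.52 to 11.2). Ndrg1, a stress-induced gene, was at 102 CPM in Diff_MK and 11.3 CPM in MK (9.04, 8.53 to 9.58). Plin2, a lipid droplet coat protein, was the only lower one, at 128 CPM in Diff_MK and 141 CPM in MK, and Car12 was at 26.8 CPM in Diff_MK and 26.7 CPM in MK. Over thinned cells, the summed count of the 10 genes correlated with that of this list at 0.56 in Diff_MK and 0.17 in MK, and Slc2a1 alone at 0.46 in Diff_MK and 0.08 in MK. The summed level of the list was highest in Diff_MK clusters 9 (2819 CPM), 1 (2803 CPM) and 10 (2446 CPM), the same groups that had the highest sums of the 10 genes.

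Regulators of the pathway went both ways. Of 20 at 5 CPM or more, 11 were higher and 9 lower in Diff_MK, where 30.8% of all genes were higher, with a median log2 ratio of 0.05. At least 1.5-fold higher were 5 (Epas1, Txnip, Egln3, Mxd4 and Mxi1; 4.91% of all genes), and 1 (Akt1) was as much lower (8.20%). Epas1, which codes for HIF-2 alpha, was at 13.6 CPM in Diff_MK and 1.72 CPM in MK (7.93, 6.83 to 9.25). Hif1a itself was at 264 CPM in Diff_MK and 249.7 CPM in MK (1.06, 1.04 to 1.07). Txnip, a glucose-responsive arrestin that limits glucose uptake, was at 38.7 CPM in Diff_MK and 11.5 CPM in MK (3.36, 3.16 to 3.58). The lowest ratios were those of Akt1 and Trp53. Akt1, a kinase that promotes glucose uptake, was at 92.0 CPM in Diff_MK and 139.8 CPM in MK, and Trp53 at 141 CPM in Diff_MK and 201 CPM in MK. Both the uptake carrier and the gene that restrains uptake thus had more transcript in Diff_MK. Egln1, Egln3 and Mxi1 stand in both lists.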

How the data were processed

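The RNA matrices, deposited as whole UMI counts with no normalization, were made with Cell Ranger 6.1.2 and mm10, per the submitters' processing notes, from 10x 3′ v3 libraries, per the labels' protocols. Tag counts per cell were likewise deposited as whole numbers. Whether they are UMIs or reads is not given in the sources used here. Samples were grouped by title.

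Cells with at least 1000 genes and at most 15% mitochondrial UMIs were kept (657 Diff_MK and 605 MK barcodes removed). Doublets were not removed. UMIs were summed over cells and divided by the library total of kept cells (103885150 in Diff_MK and 115181759 in MK). Levels of clusters, clones and other groups of cells were divided by the UMI total of that group's cells. Ratios carry exact conditional binomial intervals and shares exact Clopper-Pearson intervals, at the 95% level. Ratios against all genes used a floor of 3 counts. Clusters (scanpy 1.11.5, leidenalg 0.10.2) used 10000 UMIs per cell, log scale, 2000 variable genes, 30 components, 15 neighbours and resolution 0.5, and groups of 50 or more cells are reported. A cell was assigned to a clone if its leading tag had at least 3 counts and the runner-up at most 1/2 of that (4747 Diff_MK and 4560 MK cells). Neighbour values of clones use genes within 5 Mb by GENCODE vM21, with the 10 genes left out. In GENCODE vM21, 32158 of 32285 identifiers (99.6%) were found. Promoter windows come from RefSeq, matched for 10 of 10 genes.

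Named were all 10 genes, the 2 highest and 2 lowest ratios of each list at 5 CPM or more, the isoenzymes, and the 8 genes most like the sum and the 5 most like Slc2a1 over cluster groups, by log2 CPM. Genes leading each cluster are named too, and Hif1a, Slc2a8, Bsg, Egln1, Egln3, Mxd4, Mxi1, Shmt1 and Shmt2 were added with their values known. The 10 genes and the lists were chosen with earlier results of these data known. Intervals were tested on simulated data. Nothing in the labels says that cells came from separate cultures.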

Additional observations from a re-analysis of the deposited data

How the results depend on the processing

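The summed ratio of the 10 genes, 1.14, was above 1 under each alternative listed here, though not within each cluster. It was 1.27 with median-ratio scaling, 1.19 as a mean over cells, 1.13 with all deposited barcodes, 1.16 without the 5% of cells with the most UMIs, 1.08 without the S phase-like and G2/M phase-like clusters and 1.20 with totals that leave out mitochondrial and ribosomal protein genes. Chosen after seeing the data, cells with at most 2 cell cycle marker UMIs gave 1.24, and leaving out the Krt15-led cluster gave 1.07. The count of genes at least 1.5-fold higher, 4, was 2 without the Krt15-led cluster. Of 90 ratios of single genes over 9 settings, 4 changed direction. Without the S phase-like and G2/M phase-like clusters, Gapdh was at 0.930 and Pkm at 1.0, and without the Krt15-led cluster, Gapdh was at 0.976 and Pkm at 0.996. Slc2a1 ran from 1.77 to 3.55 and Hk2 from 0.816 to 0.918. Of the other glycolysis genes, 14 of 30 were higher with 10 or more UMIs in both libraries together, against 8 of 17. At resolution 1.0 the Krt15-led cluster had Slc2a1 at 3.28 and the sum at 1.35 over the other Diff_MK cells, against 3.43 and 1.32. No replicate could be left out with 1 library per group, and the causes were not tested. No paired analysis was possible because each group holds 1 library. Depth limits the low genes Hk2 and Pfkp and the counts in small clones.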

Other observations

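The steps that follow glycolysis, mostly mitochondrial, were not higher as a group. The tricarboxylic acid cycle list also held cytosolic relatives (Idh1, Aco1 and Mdh1) and the aminotransferases Got1 and Got2. Of its 22 genes at 5 CPM or more, 2 were higher and 20 lower in Diff_MK, where 30.8% of all genes at that level were higher. Its median log2 ratio was -0.17, where all genes had -0.16. Idh2, the mitochondrial NADP-dependent isocitrate dehydrogenase, was the exception in size, at 170.3 CPM in Diff_MK and 89.3 CPM in MK (1.91, 1.86 to 1.95). Idh1, its cytosolic relative, was at 43.1 CPM in Diff_MK and 38.3 CPM in MK. Sdhd, a succinate dehydrogenase subunit, was at 67.1 CPM in Diff_MK and 90.4 CPM in MK, and Got2, the mitochondrial aspartate aminotransferase, at 189 CPM in Diff_MK and 252 CPM in MK. Of 10 genes for pyruvate entry, 2 were higher and 8 lower (median -0.06), beside the same 30.8%. Pdk1, a kinase that inactivates pyruvate dehydrogenase, was at 29.4 CPM in Diff_MK and 14.2 CPM in MK (2.07, 1.95 to 2.20), and is also in the list of genes that answer to low oxygen. Pdp2, a phosphatase that reverses this, was at 14.2 CPM in Diff_MK and 12.3 CPM in MK. Mpc1, a subunit of the pyruvate carrier, was at 42.6 CPM in Diff_MK and 66.3 CPM in MK (0.643, 0.620 to 0.668), and Pdk3 at 33.3 CPM in Diff_MK and 41.2 CPM in MK.

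Side branches of glycolysis were mixed. Of 8 pentose phosphate genes, 4 were higher and 4 lower (median -0.10), where 30.8% of all genes were higher. Tkt, the transketolase, was at 212 CPM in Diff_MK and 185 CPM in MK, Pgls at 315 CPM in Diff_MK and 280.2 CPM in MK, Pgd at 56.1 CPM in Diff_MK and 70.5 CPM in MK, and Rpia at 10.6 CPM in Diff_MK and 14.3 CPM in MK. Of 17 serine, hexosamine, glycerol and glycogen genes, 6 were higher and 11 lower (median -0.09), and 4 (Gbe1, Uap1, Shmt1 and Shmt2) were at least 1.5-fold lower, where 8.20% of all genes were. Gbe1, the glycogen branching enzyme, was at 13.4 CPM in Diff_MK and 27.4 CPM in MK (0.488, 0.458 to 0.520), and Uap1, which makes the sugar donor UDP-GlcNAc, at 48.6 CPM in Diff_MK and 85.9 CPM in MK. Gys1, the glycogen synthase, was at 10.2 CPM in Diff_MK and 7.42 CPM in MK, and Gpd2 at 52.9 CPM in Diff_MK and 40.4 CPM in MK.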
